A study of Homo sapiens with 6 samples.

Results

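Ribosome assembly and rRNA processing factors were examined in a human line of prostate cancer cells, C4-2B-ENZR. The study's title concerns resistance to enzalutamide, a drug used against prostate cancer. A list of 38 named factors was matched by symbol to the Ensembl identifiers of the count files, and 37 of them were found among 57820 genes. The symbol BOP1 matched no identifier, and this factor is not analysed here. RNA sequencing of total RNA gave 6 libraries, 3 from cells transfected with an siRNA against RUVBL1 and 3 from cells transfected with a negative control siRNA. Both groups are the same cell line, grown in serum-containing medium. The labels give no enzalutamide treatment, no time after transfection, no siRNA sequence and no statement that the line is 1 clone. The labels do not say whether replicates came from separate cultures. The p-values below therefore reflect how far these libraries scattered, and that scatter may be technical. The 37 factors were divided by their known roles into 17 of the small subunit, 13 of the large subunit and 7 that serve both subunits or rRNA synthesis, here called shared factors.

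A ribosome is assembled in the nucleolus, where RNA polymerase I transcribes a long pre-rRNA. Assembly factors fold, cut and modify this RNA while ribosomal proteins join it. The small-subunit processome forms first on the growing transcript, around the U3 small nucleolar RNA, and releases a precursor of the small subunit. The precursor of the large subunit is built on the remaining RNA by a separate set of helicases, GTPases and scaffold proteins. Both precursors are then exported to the cytoplasm and finished there. Many of these genes are known targets of the transcription factor MYC, and their output is commonly high in tumour cells. RUVBL1, an AAA+ ATPase, works with RUVBL2 in the assembly of box C/D small nucleolar ribonucleoproteins, a class that includes the U3 particle.

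The target of the siRNA, RUVBL1, had 2725, 2618 and 2709.7 normalized counts in the RUVBL1 siRNA libraries, against 4681, 4654 and 4758 in the control siRNA libraries. It fell to 57.1% ± 1.23 of the control mean (SD, n = 3; log2 fold change -0.81, SE 0.0253, edgeR adjusted p = 3.74e-10), with no overlap between the groups. Library totals ran from 18985542 to 25697804 estimated counts in the RUVBL1 siRNA libraries and from 24720504 to 36054489 in the control siRNA libraries. Luminal prostate genes had counts in every library. Among them KLK2, FOLH1, KRT8, KRT18, EPCAM and STEAP2 fell, to between 71.1% (KRT8) and 90.9% (KRT18) of the control mean, FOXA1 rose to 120.0%, and KLK3, HOXB13 and TMPRSS2 were not called. Of markers of other cell types, CD3E, COL1A2, DCN, LUM, KRT5 and KRT14 were at 0 in all 6 libraries, and TP63 and CHGA had at most 1 count. Further markers were counted in every library of both groups: COL1A1, a stromal gene, had 185 to 253 counts in the RUVBL1 siRNA libraries and 201 to 324 in the control siRNA libraries, the neuroendocrine gene SYP 84 to 115 and 71 to 126, the endothelial gene VWF 32 to 41 and 36 to 49, the leukocyte gene PTPRC 4 to 10 and 8 to 14, and the monocyte gene CD14 1 to 6 and 1 to 5. These counts are not scaled to library size. As normalized counts, SYP stood at 127.3%, VWF at 116.0% and COL1A1 at 100.5% of the control mean. The RUVBL1 siRNA libraries lay above all controls for SYP and VWF, and overlapped them for COL1A1. None of COL1A1, SYP and VWF was called (edgeR adjusted p = 0.975, 0.0588 and 0.487), and PTPRC and CD14 were too low to test. The replicate 1 libraries of both groups stood apart, since 768 tested genes had 0 counts in both of them. No member was among those, as the lowest count of a member in any library was 293 and the highest was 40685. Of 37 members, 37 passed the filter on low counts.

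Promoter sequence is shown because several members carry the same 6 letters close to their start. Whether these letters bear on the fold changes was not tested. The letters are CACGTG, the E-box bound by MYC and related factors. They read the same on both strands. The stretches below run 5′ to 3′ on the strand of each gene, from 60 bases before its annotated start to the first 30 transcribed bases, and are credited to RefSeq on build GRCh38.p14. Capitals mark CACGTG. Promoter sequence was found for 31 of the 37 members, and not for RRP12, which fell most. Of those 31, the first 8 are all whose E-box lies wholly inside such a stretch, in order of their fall. GNL3 and NPM1 are the 2 of the 31 with the smallest falls.
RRP9 (chr3:51941875-51941964, minus strand): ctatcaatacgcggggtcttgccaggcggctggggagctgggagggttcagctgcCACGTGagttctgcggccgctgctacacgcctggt
UTP20 (chr12:101280045-101280134, plus strand): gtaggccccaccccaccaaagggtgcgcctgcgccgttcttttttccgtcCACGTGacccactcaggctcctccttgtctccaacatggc
UTP4 (chr16:69132589-69132678, plus strand): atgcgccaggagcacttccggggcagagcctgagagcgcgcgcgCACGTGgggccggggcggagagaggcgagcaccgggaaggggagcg
WDR43 (chr2:28894607-28894696, plus strand): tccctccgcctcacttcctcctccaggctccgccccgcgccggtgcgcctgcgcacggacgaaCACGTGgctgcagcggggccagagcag
NOC3L (chr10:94362910-94362999, minus strand): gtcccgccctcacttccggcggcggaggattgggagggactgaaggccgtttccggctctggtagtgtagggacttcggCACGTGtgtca
PES1 (chr22:30591881-30591970, minus strand): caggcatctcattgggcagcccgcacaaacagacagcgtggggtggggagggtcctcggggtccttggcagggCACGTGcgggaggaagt
NOP14 (chr4:2963377-2963466, minus strand): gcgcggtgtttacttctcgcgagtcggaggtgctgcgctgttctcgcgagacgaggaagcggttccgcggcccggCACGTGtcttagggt
PWP2 (chr21:44107339-44107428, plus strand): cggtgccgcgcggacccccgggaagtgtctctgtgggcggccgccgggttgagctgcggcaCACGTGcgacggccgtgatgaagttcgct
GNL3 (chr3:52685860-52685949, plus strand): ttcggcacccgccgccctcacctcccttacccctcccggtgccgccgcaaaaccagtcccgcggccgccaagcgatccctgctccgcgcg
NPM1 (chr5:171387789-171387878, plus strand): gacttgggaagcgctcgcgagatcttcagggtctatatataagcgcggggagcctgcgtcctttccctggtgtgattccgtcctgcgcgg

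Of the 37 members tested, 35 fell after RUVBL1 siRNA and 0 rose in edgeR's quasi-likelihood test, with Benjamini-Hochberg adjustment over 16006 genes at a threshold of 0.05. At an unadjusted p under 0.05 the counts were also 35 lower and 0 higher, and DESeq2 called 35 lower and 0 higher. Over all tested genes 42.2% were called, 23.1% lower and 19.1% higher. The median log2 fold change of the members was -0.36, against 0.01 over all tested genes. Falls were modest: members stood between 52.6% and 96.6% of the control mean, with 22 below 80% and 7 below 70%. All members lay below the median fold change of the tested genes, and 18 of the 37 were among the tenth of genes that fell most. In a culture, fewer cells that make these RNAs and less of the RNA per cell cannot be told apart, and the values are relative to the other RNAs of the library.

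The libraries of a group lay close together, with a median coefficient of variation over members of 2.45% in the RUVBL1 siRNA libraries and 2.41% in the control siRNA libraries. For 35 members every RUVBL1 siRNA library was below every control siRNA library, an order that 27.4% of all tested genes showed, and groups of either order did not overlap for 52.6%. A two-sided exact permutation test of each of those 35 gave 0.1, the smallest p that 3 against 3 libraries allow. Compared within replicate numbers, 36 members were lower in all 3 RUVBL1 siRNA libraries than in the control siRNA library of the same number. The share of all tested genes with that order was not computed, so this count has no background beside it. The labels do not say that the numbers pair libraries.

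**Figure D1:**
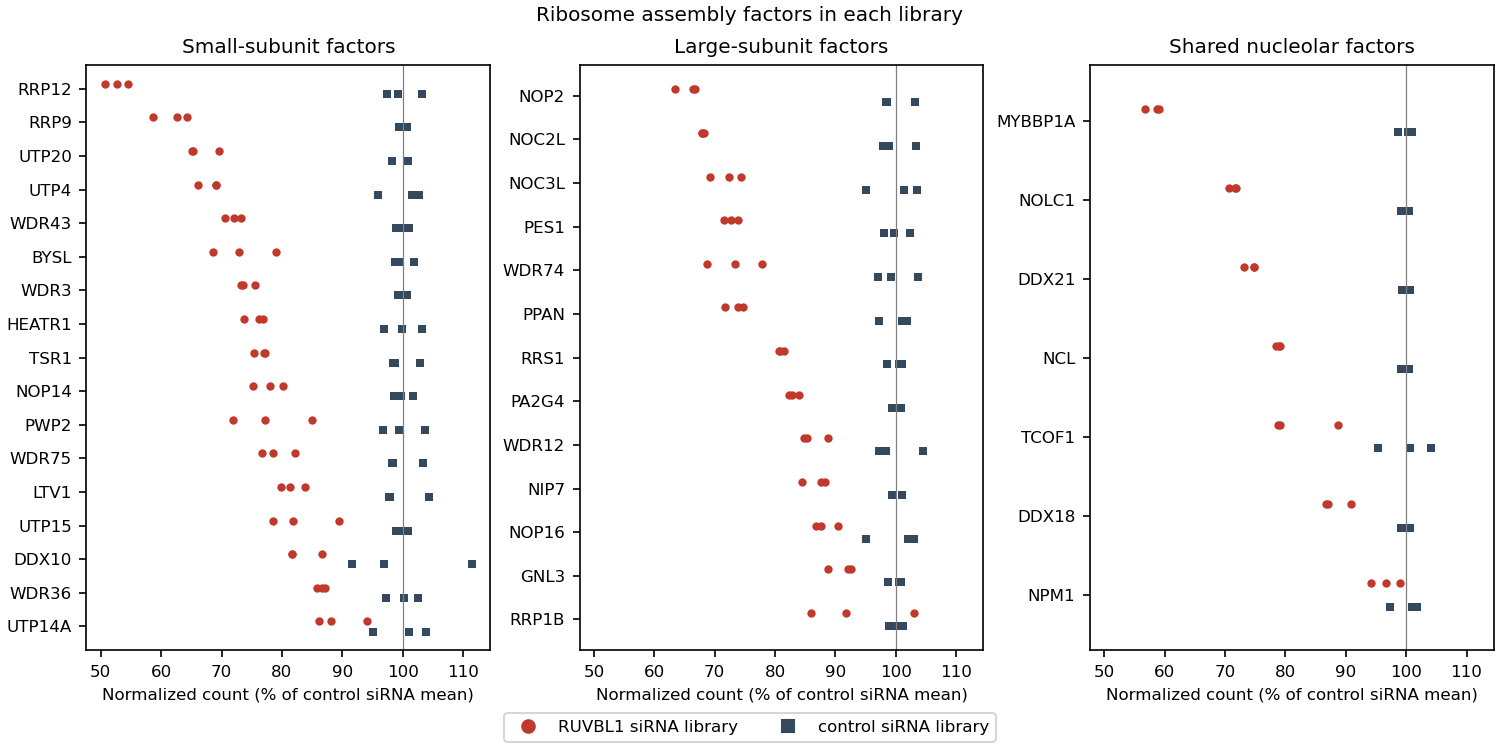
Normalized counts of each member in each library, as a percentage of that member's control siRNA mean (x axis), with circles for the 3 RUVBL1 siRNA libraries and squares for the 3 control siRNA libraries. Circles and squares overlap for RRP1B and NPM1, and for the other 35 members all circles lie left of all squares.

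Among the 17 small-subunit factors, all 17 fell and 0 rose, with a median log2 fold change of -0.39 and a range of 52.6% to 89.4% of the control mean. RRP12, a HEAT-repeat protein needed for late maturation and export of pre-ribosomes, was classed here by its role in the small-subunit precursor. RRP12 had 1477, 1428 and 1373 normalized counts in the RUVBL1 siRNA libraries, against 2798, 2692 and 2641 in the control siRNA libraries. The groups were far apart, and RRP12 had the largest fall of any member (52.6% ± 1.91 of the control mean, SD, n = 3; log2 fold change -0.93, SE 0.0363, edgeR adjusted p = 2.10e-09). Ordered by fold change from the lowest, it was number 117 of the 16006 tested genes. RRP9, a WD-repeat protein of the U3 particle itself, had 698, 765 and 745 normalized counts in the RUVBL1 siRNA libraries, against 1199, 1183 and 1188 in the control siRNA libraries. It fell to 61.9% ± 2.88 of the control mean (SD, n = 3; log2 fold change -0.69, SE 0.0424, edgeR adjusted p = 7.73e-08), and the groups did not overlap.

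The UTP-A subcomplex, which in yeast binds the growing pre-rRNA first, had 5 members on the list and all 5 fell. UTP4 had 947, 989.7 and 989.8 normalized counts in the RUVBL1 siRNA libraries, against 1374, 1455 and 1472 in the control siRNA libraries, with all libraries of each group close together (68.0% ± 1.73 of the control mean, SD, n = 3; log2 fold change -0.56, SE 0.0387, edgeR adjusted p = 2.29e-07). WDR43 stood at 71.9% ± 1.38 of the control mean, HEATR1 at 75.6% ± 1.66, WDR75 at 79.2% ± 2.82 and UTP15 at 83.3% ± 5.57 (SD, n = 3 each). UTP15 was thus the least reduced of the 5, and its RUVBL1 siRNA libraries were the most scattered. The UTP-B subcomplex is built largely of WD-repeat proteins, and its 3 listed members fell as well. WDR3 stood at 74.1% ± 1.27, PWP2 at 78.0% ± 6.59 and WDR36 at 86.5% ± 0.613 of the control mean (SD, n = 3 each). PWP2 was the member with the fewest counts, and its normalized counts were 391, 331 and 355 after RUVBL1 siRNA, against 458, 446 and 478 after control siRNA. Replicate 1 was the highest RUVBL1 siRNA library for it, still below every control library.

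Other processome factors moved over a wide range. UTP20, a very large scaffold protein of the processome, had 892, 834 and 837 normalized counts in the RUVBL1 siRNA libraries, against 1260.0, 1291 and 1294 in the control siRNA libraries (66.6% ± 2.56 of the control mean, SD, n = 3; log2 fold change -0.59, SE 0.0391, edgeR adjusted p = 1.58e-07). Its 2 groups were far apart. NOP14, a core processome protein, stood at 77.8% ± 2.49 of the control mean. Its reads may include some from the antisense gene NOP14-AS1, which overlaps it, since the strand setting of the counting is not given. NOP14-AS1 itself had 234, 229.5 and 224 normalized counts in the RUVBL1 siRNA libraries, against 256, 253 and 267 in the control siRNA libraries, at 88.5% of the control mean (log2 fold change -0.18, SE 0.0837, edgeR adjusted p = 0.116), and was not called.

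DDX10, a helicase whose yeast counterpart Dbp4 acts in early pre-rRNA cleavage, had 861, 812 and 813 normalized counts in the RUVBL1 siRNA libraries, against 1109, 963 and 912 in the control siRNA libraries (log2 fold change -0.26, SE 0.0689, edgeR adjusted p = 0.0124). Control replicate 1 was the highest library, and the gap between the groups was small. Leaving out RUVBL1 siRNA replicate 2 (edgeR adjusted p = 0.0757) or replicate 3 (0.0747) ended the call of DDX10. UTP14A, needed for early cleavage of the pre-rRNA, had 843, 789.9 and 771 normalized counts in the RUVBL1 siRNA libraries, against 852, 931 and 905 in the control siRNA libraries (log2 fold change -0.16, SE 0.0505, edgeR adjusted p = 0.0207). RUVBL1 siRNA replicate 1 was only just below control replicate 1. Its call ended when RUVBL1 siRNA replicate 2 (edgeR adjusted p = 0.0648) or 3 (0.0795) was left out, and likewise for control replicate 2 (0.0822) or 3 (0.0555). Without replicate 1 of both groups its log2 fold change was -0.24 (edgeR adjusted p = 0.000314).

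Factors of the later small-subunit precursor also fell. BYSL, the human counterpart of yeast Enp1, had 793, 732 and 688 normalized counts in the RUVBL1 siRNA libraries, against 992, 997 and 1022 in the control siRNA libraries (73.5% ± 5.27 of the control mean, SD, n = 3; log2 fold change -0.45, SE 0.0526, edgeR adjusted p = 2.31e-05). The RUVBL1 siRNA libraries differed from each other more than the control libraries did, with no overlap. TSR1, a GTPase-like protein of the cytoplasmic precursor, stood at 76.6% ± 1.02 and LTV1, a factor of late small-subunit maturation, at 81.6% ± 1.98 of the control mean (SD, n = 3 each).

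Among the 13 large-subunit factors, 12 fell and 0 rose, with a median log2 fold change of -0.31 and a range of 65.5% to 93.5% of the control mean. NOP2, an rRNA methyltransferase of the large subunit long known as the proliferation antigen p120, had 2416, 2428 and 2303 normalized counts in the RUVBL1 siRNA libraries, against 3747, 3574 and 3583 in the control siRNA libraries. NOP2 had the largest fall of the class (65.5% ± 1.89 of the control mean, SD, n = 3; log2 fold change -0.61, SE 0.0316, edgeR adjusted p = 1.79e-08). NOC2L had 5208, 5187 and 5188 normalized counts in the RUVBL1 siRNA libraries, against 7885, 7468 and 7550.3 in the control siRNA libraries (68.0% ± 0.155 of the control mean, SD, n = 3; log2 fold change -0.56, SE 0.0211, edgeR adjusted p = 1.63e-09). Yeast Noc2 joins the large-subunit precursor together with Noc3, and human NOC2L is also known as an inhibitor of histone acetyltransferases. The 3 RUVBL1 siRNA libraries were nearly equal for NOC2L, and all were far below the controls. NOC3L, the counterpart of that partner, stood at 72.0% ± 2.57 of the control mean (SD, n = 3; log2 fold change -0.47, SE 0.0591, edgeR adjusted p = 3.61e-05).

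The PeBoW complex, which consists of PES1, BOP1 and WDR12 and is needed to process the large-subunit rRNAs, was measured through 2 of its subunits. PES1 had 2571, 2529.8 and 2488 normalized counts in the RUVBL1 siRNA libraries, against 3470.0, 3411 and 3560.4 in the control siRNA libraries (72.7% ± 1.19 of the control mean, SD, n = 3; log2 fold change -0.46, SE 0.0283, edgeR adjusted p = 7.89e-08). WDR12 had 1188, 1244 and 1196 normalized counts in the RUVBL1 siRNA libraries, against 1362, 1379 and 1464 in the control siRNA libraries (86.3% ± 2.15 of the control mean, SD, n = 3; log2 fold change -0.21, SE 0.0378, edgeR adjusted p = 0.000621). Both fell with no overlap between the groups, and the 2 log2 fold changes were -0.46 for PES1 and -0.21 for WDR12. The difference between them was not tested.

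The other large-subunit factors spread from clear to slight falls. WDR74, which acts with the AAA+ ATPase NVL in remodelling the precursor, stood at 73.4% ± 4.57 of the control mean and PPAN, the counterpart of yeast Ssf1, at 73.4% ± 1.55 (SD, n = 3 each). RRS1, a large-subunit factor first described in yeast, stood at 80.9% ± 0.462, PA2G4, whose yeast relative Arx1 escorts the precursor out of the nucleus, at 83.1% ± 0.830, and NIP7, a pre-rRNA-binding protein, at 86.8% ± 2.06 (SD, n = 3 each). NOP16, at 88.2% ± 1.88, and GNL3 fell least among those called. GNL3, the nucleolar GTPase nucleostemin, had 4656, 4825 and 4848 normalized counts in the RUVBL1 siRNA libraries, against 5265, 5170.5 and 5289 in the control siRNA libraries (log2 fold change -0.13, SE 0.0217, edgeR adjusted p = 0.0003). The gap between its groups was narrow.

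RRP1B was the large-subunit factor that was not called. It is a nucleolar protein that also directs protein phosphatase 1 to nucleoli. It had 936, 781 and 834 normalized counts in the RUVBL1 siRNA libraries, against 899.5, 920.2 and 908 in the control siRNA libraries (log2 fold change -0.10, SE 0.0593, edgeR adjusted p = 0.217). RUVBL1 siRNA replicate 1 was the highest of all 6 libraries, whereas the other two were below every control. The exact two-sided permutation p was 0.4. Without RUVBL1 siRNA replicate 1 the log2 fold change was -0.17 (edgeR adjusted p = 0.0159), and without replicate 1 of both groups -0.18 (edgeR adjusted p = 0.0047), so this result rested on that library.

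Of the 7 shared factors, 6 fell and 0 rose, with a median log2 fold change of -0.34. MYBBP1A, which binds MYB and takes part in RNA polymerase I transcription and early pre-rRNA processing, had 2062, 1977 and 2051 normalized counts in the RUVBL1 siRNA libraries, against 3499.5, 3444 and 3523 in the control siRNA libraries. It had the largest fall of this class and the next largest of all members after RRP12 (58.2% ± 1.32 of the control mean, SD, n = 3; log2 fold change -0.78, SE 0.0288, edgeR adjusted p = 1.37e-09). NOLC1, a chaperone of small nucleolar ribonucleoproteins, had 5044, 5111 and 5126 normalized counts in the RUVBL1 siRNA libraries, against 7175, 7078 and 7164 in the control siRNA libraries (71.3% ± 0.616 of the control mean, SD, n = 3; log2 fold change -0.49, SE 0.0165, edgeR adjusted p = 6.74e-10). Both genes separated the groups by far more than the spread within them. TCOF1, or treacle, links RNA polymerase I with pre-rRNA modification and stood at 82.2% ± 5.66 of the control mean (SD, n = 3; log2 fold change -0.28, SE 0.0524, edgeR adjusted p = 0.0022). Its normalized counts were 2215, 1974 and 1967 after RUVBL1 siRNA, against 2598, 2379 and 2514 after control siRNA, and RUVBL1 siRNA replicate 1 lay above the other RUVBL1 siRNA libraries.

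The helicases DDX21 and DDX18 both fell. DDX21, which acts in rRNA transcription and in processing of the small-subunit RNA, had 5089, 5208 and 5214 normalized counts in the RUVBL1 siRNA libraries, against 6914, 7002 and 6973 in the control siRNA libraries (log2 fold change -0.43, SE 0.0172, edgeR adjusted p = 2.52e-09). DDX18, the counterpart of yeast Has1, which serves both subunits, stood at 88.2% ± 2.26 of the control mean (SD, n = 3; log2 fold change -0.18, SE 0.0315, edgeR adjusted p = 0.000505). The groups overlapped for neither gene.

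Of the 2 most abundant members, NCL fell and NPM1 was not called. NCL, or nucleolin, an RNA-binding protein of pre-rRNA, had 23281, 23489.7 and 23431 normalized counts in the RUVBL1 siRNA libraries, against 29837, 29425 and 29837 in the control siRNA libraries (78.8% ± 0.362 of the control mean, SD, n = 3; log2 fold change -0.34, SE 0.0185, edgeR adjusted p = 2.55e-08). Nucleolin separated the groups clearly. NPM1, or nucleophosmin, the main scaffold of the outer nucleolar layer, had 28835, 29593 and 30282 normalized counts in the RUVBL1 siRNA libraries, against 29778, 30890.0 and 31173 in the control siRNA libraries (96.6% ± 2.36 of the control mean, SD, n = 3; log2 fold change -0.05, SE 0.0245, edgeR adjusted p = 0.126). The groups overlapped. Its exact two-sided permutation p was 0.2. It was called without control replicate 1 (log2 fold change -0.07, edgeR adjusted p = 0.0299). With the replicate number as a block the log2 fold change was again -0.05 (edgeR adjusted p = 1.53e-11), but the fitted SE of 0.00441 lay below the 0.00683 that counting noise alone gives. The difference between the fold changes of NCL and NPM1 was not tested.

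Levels per length differed widely among the members and showed little relation to the falls. NPM1, the highest, had 725 ± 17.7 CPM per kb in the RUVBL1 siRNA libraries and 751 ± 18.1 CPM per kb in the control siRNA libraries (SD, n = 3 each; CPM is the count scaled to the effective library size, and kb is the length of the principal transcript). NCL followed with 220 ± 1.01 CPM per kb in the RUVBL1 siRNA libraries and 279 ± 2.23 CPM per kb in the control siRNA libraries. The lowest were UTP20, with 3.59 ± 0.138 CPM per kb in the RUVBL1 siRNA libraries and 5.39 ± 0.0793 CPM per kb in the control siRNA libraries, and PWP2, with 4.13 ± 0.350 CPM per kb in the RUVBL1 siRNA libraries and 5.30 ± 0.187 CPM per kb in the control siRNA libraries. Across the 37 members the log2 fold change and the log2 control level per kb had a Pearson r of 0.0595 and a Spearman rho of -0.108, given as a description because the points share the same libraries. All 37 members together took 0.476%, 0.474% and 0.476% of the counts in the RUVBL1 siRNA libraries, against 0.553%, 0.547% and 0.550% in the control siRNA libraries. NPM1 and NCL supplied 41.6% of these counts. The summed normalized counts of the small-subunit factors stood at 73.5% ± 0.810 of the control mean, those of the large-subunit factors at 78.6% ± 0.293 and those of the shared factors at 83.8% ± 0.983 (SD, n = 3 each). The sum of the shared factors is weighted by NPM1 and NCL, which gave 74.9% of it.

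Other genes of the pathway, 117 by list and 114 by matched identifier, were tested in the same fit. Of these 114, 78 fell and 2 rose, and their median log2 fold change was -0.22. Over all tested genes, 23.1% were called lower and 19.1% higher, the share beside which each count below is to be read. By class, 28 of 44 further small-subunit genes, 39 of 50 further large-subunit genes and 11 of 20 genes of rRNA decay and export fell, and both genes that rose were large-subunit genes. The members had been chosen with results of these data known, so no test of the members against these genes was made. The 4 further subunits of UTP-A and UTP-B (NOL11, TBL3, UTP6 and UTP18) all fell, with log2 fold changes between -0.38 and -0.33. Among the 9 core subunits of the RNA exosome, the main nuclear 3′ to 5′ RNA-degrading machine, 3 fell and 6 were not called, with a median log2 fold change of -0.07.

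DHX37, a helicase that releases U3 from the processome, had the largest fall of the wider lists, with 505, 474 and 447 normalized counts in the RUVBL1 siRNA libraries, against 908, 909 and 901 in the control siRNA libraries (log2 fold change -0.93, SE 0.0544, edgeR adjusted p = 5.05e-08). It stood at 52.4% of the control mean, beside 52.6% for RRP12. Among large-subunit genes, URB2 fell by 0.68 on the log2 scale, the helicase gene DDX31 by 0.62, the giant AAA+ ATPase gene MDN1 by 0.57, the rRNA methyltransferase gene FTSJ3 by 0.54 and the GTPase gene GTPBP4 by 0.48. The processome genes NOL6, the counterpart of yeast Utp22, and PDCD11, that of yeast Rrp5, fell by 0.53 and by 0.49 on the log2 scale. RSL24D1, the counterpart of yeast Rlp24 in the large-subunit precursor, rose, with 5580.3, 5597 and 5401 normalized counts in the RUVBL1 siRNA libraries, against 4285, 4319 and 4292 in the control siRNA libraries (log2 fold change 0.36, SE 0.0207, edgeR adjusted p = 4.22e-08). All 3 RUVBL1 siRNA libraries lay above all controls. NOP53 also rose (log2 fold change 0.10, SE 0.0309, edgeR adjusted p = 0.0216), by a small amount.

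**Figure D2:**
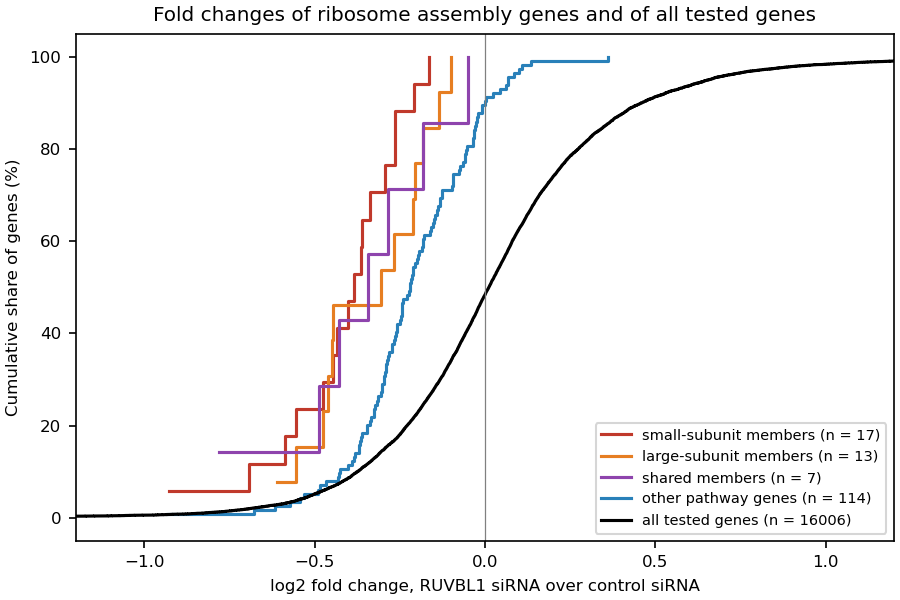
Cumulative share of genes (y axis, percent) at or below each log2 fold change of RUVBL1 siRNA over control siRNA (x axis), for the small-subunit, large-subunit and shared members, the 114 other pathway genes and all 16006 tested genes. The curves of the members lie left of the curve of all genes and end below 0, and the curve of the other pathway genes lies between them over most of its length.

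How libraries are scaled moved all these values together. Scaling by library totals alone moved the median gene up by 0.0993 on the log2 scale, and 68.4% of calls were higher, against 45.3% with TMM factors. On that scale 30 of 37 members fell and 0 rose, with 15 of 17 small-subunit, 10 of 13 large-subunit and 5 of 7 shared factors lower. DDX10, UTP14A, NOP16, GNL3 and DDX18 lost their calls with library totals alone, and the values of NPM1 and RRP1B turned to slightly above 0 without being called. The shift was that of all genes, and the files do not show which centring is right. Without replicate 1 of both groups, 36 of 37 members fell, NPM1 being the one not called (edgeR adjusted p = 0.0983). In that setting 7405 of 16416 tested genes were called in either direction, against 6755 of 16006 in the main fit.

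**Figure D3:**
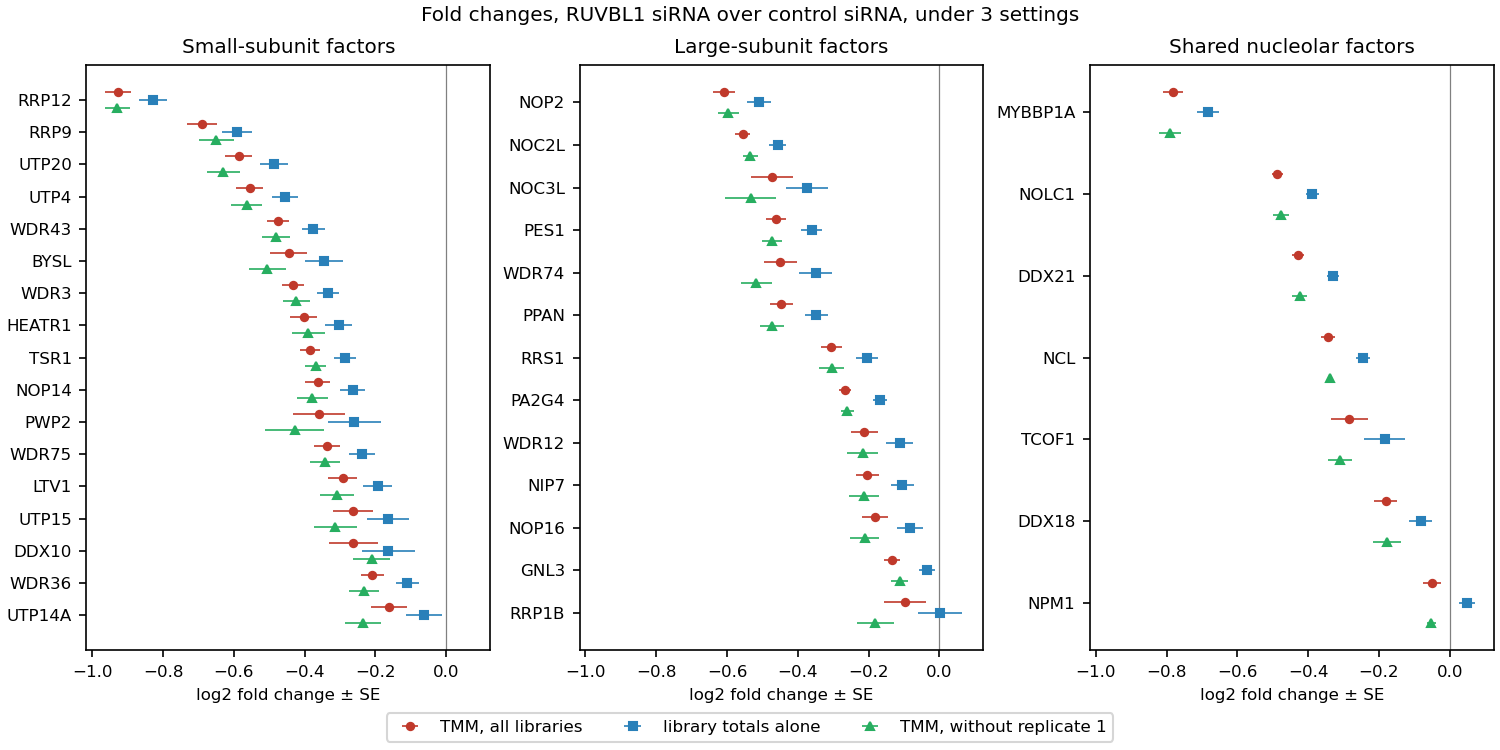
Log2 fold change of each member with its SE (x axis), with TMM factors and all libraries (circles), with library totals alone (squares) and with TMM factors without replicate 1 of both groups (triangles). Squares lie to the right of circles by a like amount in every row, and NPM1 and RRP1B are the members whose squares pass 0.

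Promoter windows of 300 bases, from 250 before to 50 after the annotated start, were found for 31 of the 37 members. None was found for RRP12, RRP1B, RRS1, NOLC1, TCOF1 and DDX18, so these were not searched. For 27 of the 31, the transcribed end of the window lay in a GENCODE 29 transcript of the gene on the same strand. The starts of the rest were not borne out by that check, and positions relative to the start rest on the RefSeq annotation. The E-box letters CACGTG occurred in 13 of these 31 windows (41.9%), against 10.2% of 10971 windows of tested genes and 7.43% of all 27305 windows. In 12 members they began no more than 20 bases before the start or lay after it, as they did in 2.35% of the windows of tested genes. In the other pathway genes CACGTG occurred in 31 of 102 windows (30.4%). The ETS letters CCGGAAG, searched on both strands, occurred in 13 member windows (41.9%) and in 19.3% of those of tested genes. The GC box letters GGGCGG occurred in 22 member windows (71.0%), near the 69.8% of tested genes. CACGTG can share no base with CCGGAAG and only an end base with GGGCGG. A match is a description of the sequence and not evidence that a factor binds there.

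Among the 31 members with a window, the 13 with CACGTG had a median log2 fold change of -0.47 and the 18 without it -0.30. RRP12, which fell most, had no window and is in neither group. The ranges overlapped widely: UTP14A, with an E-box far upstream, was at -0.16, and NOC2L, without one, at -0.56. All 8 members with capitals in the stretches printed above have the letters beginning within 20 bases of the start, with log2 fold changes between -0.69 for RRP9 and -0.36 for PWP2. In MYBBP1A, NOP2, BYSL and LTV1 the letters began further after the start and ended beyond the reach of such a stretch. Their log2 fold changes were -0.78, -0.61, -0.45 and -0.29, so LTV1 fell less than several members without the letters. Of the members without the letters, GNL3 and NPM1 were printed for their small changes, at -0.13 and -0.05, and WDR74, PPAN and WDR3, also without them, were at -0.45, -0.45 and -0.43. Over all tested genes, 1117 with CACGTG anywhere in the window had a median log2 fold change of 0.0050 with 26.1% called lower, and 9854 without it -0.0028 with 26.7% lower. For the 258 tested genes whose letters began no more than 20 bases before the start or after it, the median was -0.048 and 34.1% were called lower. In the other pathway genes the medians were -0.26 with the letters (74.2% lower), -0.30 with them in that position (19 genes, 78.9% lower) and -0.22 without (67.6% lower). The position near the start was singled out after the values were seen, and no test was made.

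**Figure D4:**
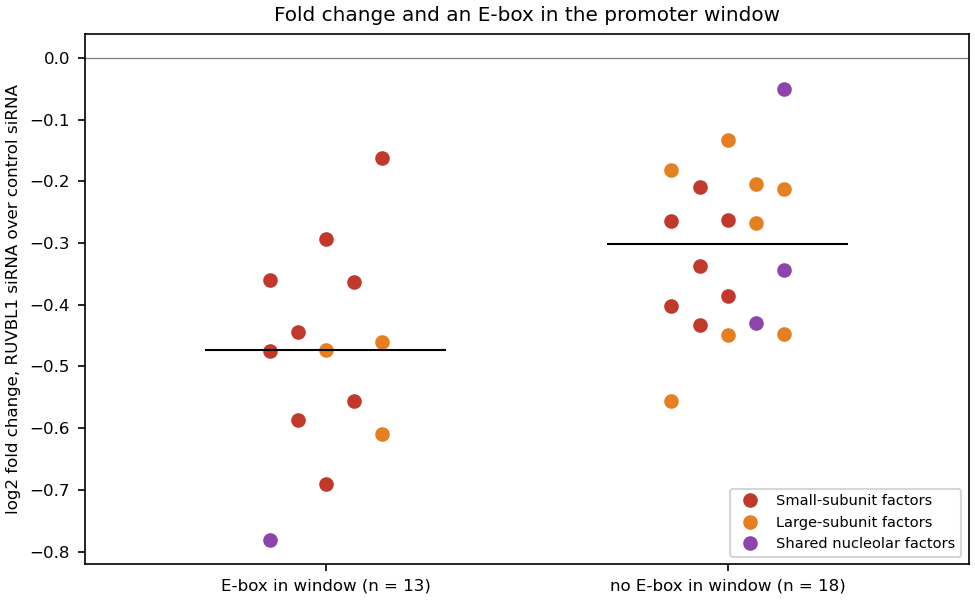
Log2 fold change of RUVBL1 siRNA over control siRNA (y axis) for the members with a promoter window, split by whether the window holds the E-box letters. Points are members coloured by class and lines are medians, -0.47 for 13 members with an E-box and -0.30 for 18 without.

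Related loci could share reads with some members. NPM1 has 49 pseudogenes in the files, 24 of them with at least 1 count, and together they held between 5.34% and 6.10% of the NPM1 count in a library. The largest, NPM1P27, had 1238, 1343 and 1278 normalized counts in the RUVBL1 siRNA libraries, against 1305, 1352 and 1417 in the control siRNA libraries, and was not called (log2 fold change -0.08, SE 0.0413, edgeR adjusted p = 0.158). The share held by its pseudogenes was larger than the fitted change of NPM1. Pseudogenes of PA2G4 held between 0.922% and 1.5% of its count and those of NOC2L between 0.364% and 0.666%. NOC2LP1 had 8.01, 11.9 and 13 normalized counts in the RUVBL1 siRNA libraries, against 27.4, 30.4 and 35.6 in the control siRNA libraries (log2 fold change -1.48, SE 0.328, edgeR adjusted p = 0.00286), a fall in the direction of NOC2L at few counts. The readthrough gene PPAN-P2RY11, which spans PPAN, had between 0 and 14 counts per library, beside at least 1284 for PPAN. WDR74 overlaps a U2 small nuclear RNA gene on the same strand in the GENCODE annotation, and its value may hold reads of that gene.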

How the data were processed

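The authors deposited estimated counts for each gene and library. From the values these are not scaled to library size, since they are at least 0 and mostly whole, and their totals differ. Bowtie 0.12.2 is named, per the submitters' processing notes, along with mm8 and mm9, mouse builds that do not match the human Ensembl identifiers of the files. Not given in the sources used here are the counter, the human build and the strand setting. Counts were rounded to whole numbers. Symbols came from a table matched by stable identifier (51996 of 57820 genes), and lengths from principal transcripts of GENCODE 29.

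Tests across genes used edgeR 4.0.16 under R 4.3.3 (filterByExpr, TMM factors, robust quasi-likelihood fit, group as the only term, two-sided). Normalized counts are counts per effective library size times the mean effective size of 26348516. An SE is the log2 fold change divided by the square root of F. The fits were first run on simulated data. All 38 members were to be named, and of the other pathway genes those called with a mean of at least 100 normalized counts, namely the 8 largest falls and every rise. The members and lists were chosen with earlier results of these data known. Deviations of same-numbered libraries from their group means had r = 0.939, 0.819 and 0.824 over tested genes. Over genes above 0 in replicate 1 the values were 0.423, 0.192 and 0.221. Libraries of unlike number were not compared, and replicate 1 stood apart in both groups. These values therefore cannot show whether the numbers pair libraries, and the labels do not say. The main fit made no use of the numbers. Alternatives were DESeq2 1.42.0, other scalings and filters, the replicate block and leaving libraries out. Depth limits precision, and counting error does not cover variation between cultures. Some cell type markers are not reported here.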

Additional observations from a re-analysis of the deposited data

How the results depend on the processing

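Over 13 alternatives, 464 of 481 member fold changes kept their direction and their side of the threshold, and 30 of 37 members did so under every alternative. The count of members called lower ran from 33 to 36 when 1 library was left out, was 35 with DESeq2, with DESeq2 size factors, with no filter on low counts and with at least 50 counts in 3 libraries, and was 30 with library totals alone. With library totals alone the values of NPM1 (log2 fold change 0.049) and RRP1B (0.0014) changed sign, 8 other pathway genes rose, and over all genes 2297 fell and 4981 rose, against 3695 and 3060 with TMM factors. The count of other pathway genes that rose ran from 1 to 3 when libraries were left out. With the replicate number as a block, 36 members fell, and NPM1 was the only member whose call changed (edgeR adjusted p = 1.53e-11). That block called 7837 of 16006 tested genes, against 6755 in the main fit. Whether the numbers pair libraries is not known. Depth limits PWP2, NOC3L and UTP15 most, since they had the fewest counts among the members.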
